A study of Caenorhabditis elegans with 6 samples.

Results

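The 42 genes described here encode nuclear-encoded parts of the mitochondrial respiratory chain of the nematode Caenorhabditis elegans. They were taken by name from the count table: every WormBase symbol that starts with nuo-, cco-, cox-, ucr-, asb- or asg-, together with gas-1, isp-1, cyc-1, sdha-1, sdha-2, sdhb-1, sdhd-1, mev-1 and atp-1 to atp-5. They are 42 of the 46748 genes of the table. By complex, 7 belong to complex I, 5 to complex II, 7 are subunits of complex IV and 7 assist its assembly, 7 belong to complex III and 9 to complex V. No symbol now starts with cco-; the gene long known as cco-1 is listed as cox-5B.

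The libraries were made from whole adult hermaphrodites of the wild-type strain N2, at 5 days past the L4 larval stage, and neither group carries a mutation or transgene by the labels. One group of 3 libraries carries the perturbation label T25B9.1, the RNAi target, a predicted glycine C-acetyltransferase of threonine breakdown. The other 3 carry the label L4440, the plasmid that serves without an insert as the control of feeding RNAi. The comparison asks which transcripts differ when the target is silenced in adult animals. The source name of all 6 libraries, however, mentions T25B9.1 RNAi. The target itself had 219, 317 and 430 counts in the libraries labelled T25B9.1, against 90, 92 and 132 in those labelled L4440. It was therefore 3.31-fold higher where its own RNAi is named (edgeR adjusted p = 0.00483), and every direction below is that of the labels. Whether the labels of the 2 groups were exchanged cannot be told from these files, and an exchange would turn the sign of every fold change. Whether each library stands for its own culture is not stated, so p-values measure only the spread between these libraries, which may be technical. Library totals ran from 25480225 to 38621940 counts.

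The respiratory chain passes electrons from NADH through complex I, or from succinate through complex II, to ubiquinone, then through complex III and cytochrome c to complex IV, which reduces oxygen. Complexes I, III and IV pump protons across the inner mitochondrial membrane, and complex V, the ATP synthase, uses that gradient to make ATP. Most subunits are encoded in the nucleus and a few on the mitochondrial chromosome, except for complex II, which is wholly nuclear. In C. elegans the chain is best known for its links to lifespan and oxygen sensitivity: mutants of isp-1 and nuo-6 live long, whereas mutants of mev-1 and gas-1 are sensitive to oxygen.

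None of the 42 genes differed between the libraries labelled T25B9.1 and those labelled L4440 beyond the spread between libraries. By edgeR's quasi-likelihood test, with p-values adjusted over all 13494 genes tested, 0 members were higher and 0 lower. Of all tested genes 461 (3.42%) passed, 1.13% higher and 2.29% lower. The smallest adjusted p among the members was 0.457, no member had an unadjusted p under 0.05 (13.1% of all tested genes did), and DESeq2 and limma-voom also called 0 members. All 42 passed the filter on low counts, and the lowest count of any member in any library was 196. In bulk RNA from whole animals, fewer cells of a type and less RNA per cell cannot be told apart.

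The fold changes were small in size as well as below the threshold. Log2 fold changes of the members, T25B9.1 over L4440, ran from -0.16 to 0.12 with a median of -0.038, beside a median of 0.008 over all tested genes. Standard errors ran from 0.0574 to 0.134. The 95% intervals of all 42 genes lay between -0.40 and 0.36, so a change of 1.5-fold in either direction fell outside each of them. The same held for 65.4% of all tested genes, and for 1300 of the 1350 with the highest mean CPM, the read count scaled to a common library total. Of the members 32 had a negative and 10 a positive log2 fold change, while 6402 of all tested genes (47.4%) were negative. This majority rested on 1 library, L4440 replicate 2: without it 12 members were negative and the median was 0.031.

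**Figure D1:**
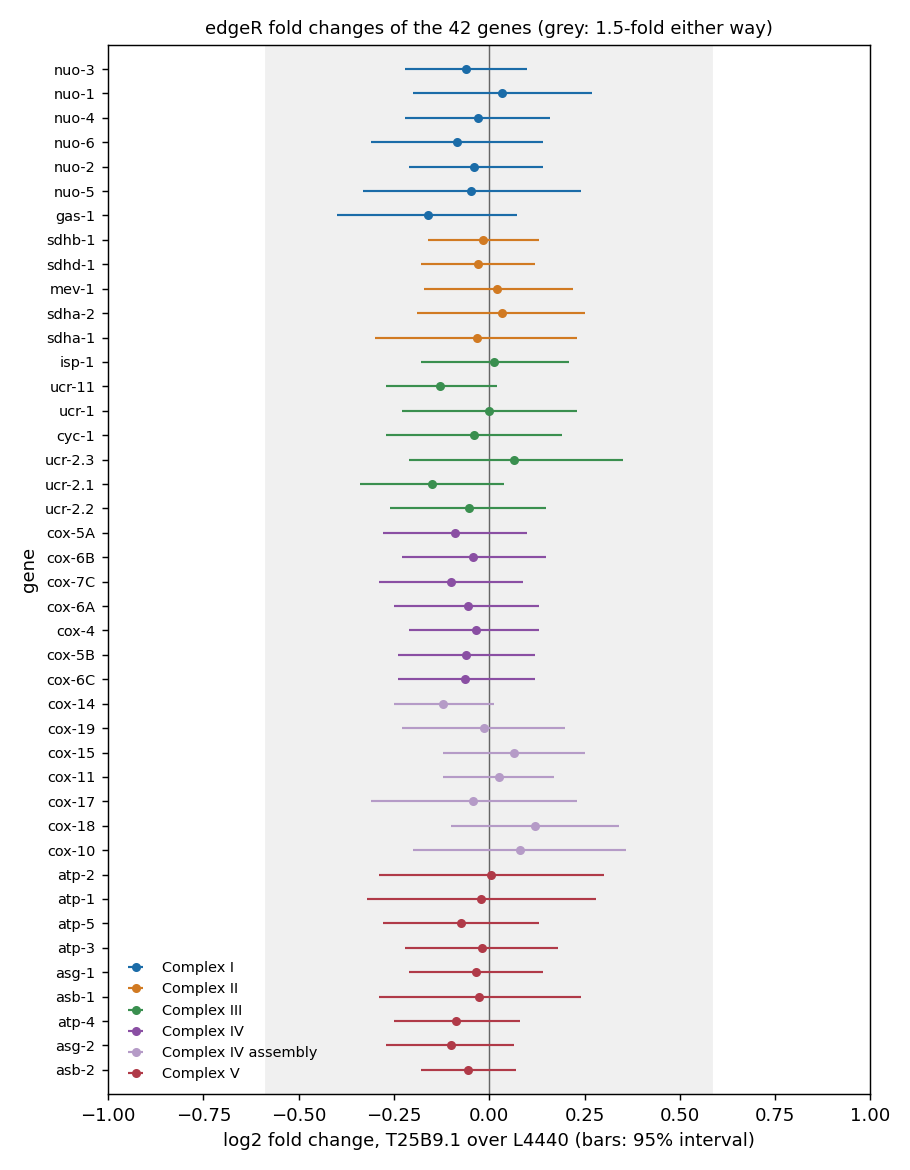
Log2 fold change of each of the 42 genes, T25B9.1 over L4440 (horizontal axis), with its 95% interval from edgeR, by complex; the grey band marks 1.5-fold either way. Every interval stays inside the band, and the lowest and highest bounds are -0.40 for gas-1 and 0.36 for cox-10.

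Only 2 members had groups that did not overlap, cox-14 and ucr-11, both lower in the libraries labelled T25B9.1. Over all tested genes 17.9% had groups without overlap, 8.29% higher and 9.6% lower, so the members' count lies under the background. The assembly factor gene cox-14 (WBGene00011875, chromosome III, 10218942 to 10222825, plus strand, build WBcel235) had 66.2, 61.9 and 63.6 CPM in the libraries labelled T25B9.1, against 66.4, 71.6 and 70.3 CPM in those labelled L4440. Its log2 fold change was -0.12 (SE 0.06, edgeR adjusted p = 0.457). The complex III subunit gene ucr-11 (WBGene00019007, chromosome I, 6552834 to 6553379, minus strand) had 227, 225 and 215 CPM per kilobase of exon in libraries labelled T25B9.1, against 227, 259 and 241 in those labelled L4440. The nearest libraries of the 2 groups thus differed by less than the rounding, and the gene did not pass (log2 fold change -0.13, SE 0.0657, edgeR adjusted p = 0.483).

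Levels differed far more between the genes than between the libraries. Per kilobase of exon the mean level over the 6 libraries ran from 5.67 CPM for cox-10 to 972 CPM for atp-2, a 171-fold span, with a median of 162. The median member stood at percentile 94.4 of all tested genes on this scale, and 24 members were in the top 10% of them. Together the 42 genes took 0.981%, 1.01% and 0.97% of all counts in the libraries labelled T25B9.1, against 0.955%, 1.11% and 0.942% in those labelled L4440. The groups overlapped, with L4440 replicate 2 highest of the 6. Subunits of complex V made up most of this share, 0.53% ± 0.0242 of counts under the T25B9.1 label and 0.536% ± 0.0555 under the L4440 label (SD, n = 3 each).

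**Figure D2:**
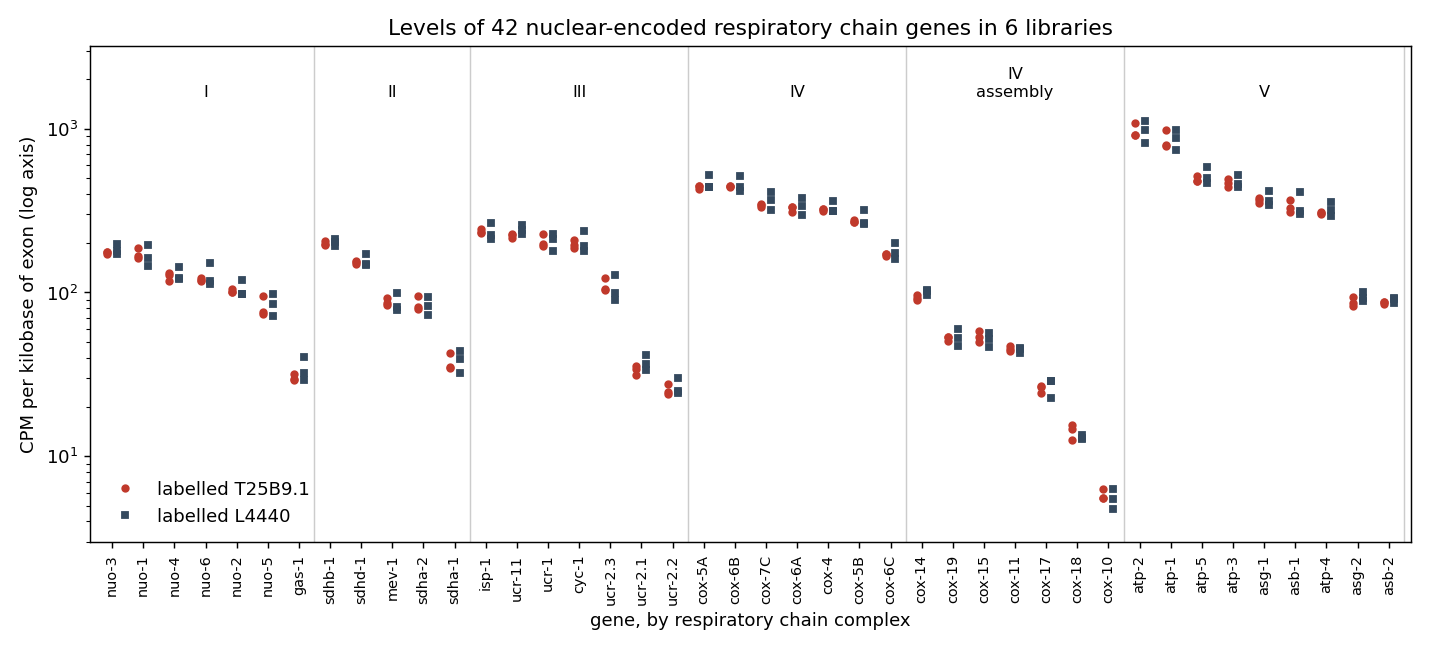
Level of each gene in each library, in CPM per kilobase of exon on a log axis, by complex and in falling order within it; circles are the 3 libraries labelled T25B9.1 and squares the 3 labelled L4440. Levels run from 972 CPM per kilobase for atp-2 to 5.67 for cox-10. Within a gene the 2 groups lie close together, and they overlap for all genes but cox-14 and ucr-11.

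Complex I, which oxidises NADH, was represented by 7 genes, and 0 passed. Their log2 fold changes ran from -0.16 to 0.033 (median -0.048), and levels spanned 5.57-fold. The gene gas-1 (WBGene00001520, chromosome X, 15586786 to 15590397, minus strand) encodes the core subunit beside the ubiquinone site. Its level was the lowest of these 7 genes, and its difference was the largest of all 42 members. It had 29.8, 31.8 and 29.2 CPM per kilobase in the libraries labelled T25B9.1, against 32.1, 40.3 and 29.4 in those labelled L4440. Only L4440 replicate 2 stood clear of the other 5 libraries, and the log2 fold change was -0.16 with an SE of 0.106 (edgeR adjusted p = 0.615). The accessory subunit gene nuo-3 was the most abundant of the 7, with 176, 177 and 172 CPM per kilobase in libraries labelled T25B9.1, against 172, 198 and 178 in those labelled L4440. For nuo-6, whose mutants are long-lived, the values were 79.6, 77.1 and 76.8 CPM in libraries labelled T25B9.1, against 73.6, 98.6 and 75.8 CPM in those labelled L4440. Again 1 library, L4440 replicate 2, was high, and the others lay close together. The flavoprotein gene nuo-1, which holds the NADH site, and the iron-sulphur subunit gene nuo-5 had log2 fold changes of 0.033 and -0.048.

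Complex II, the succinate dehydrogenase shared with the tricarboxylic acid cycle, had the smallest differences. Its 5 genes had log2 fold changes between -0.033 and 0.033 (median -0.016), 0 passed, and the smallest adjusted p was 0.92 by edgeR. The iron-sulphur subunit gene sdhb-1 was the most abundant, with 197, 206 and 195 CPM per kilobase in libraries labelled T25B9.1, against 202, 211 and 192 in those labelled L4440. The membrane anchor gene sdhd-1 had 153, 155 and 150 under the T25B9.1 label, against 149, 171 and 148 under the L4440 label. Both genes had overlapping groups with little spread. The cytochrome b subunit gene mev-1 (WBGene00003225, chromosome III, 10334277 to 10335168, plus strand) had 83.5, 93.1 and 85.9 CPM per kilobase in libraries labelled T25B9.1, against 81.6, 98.9 and 78.5 in those labelled L4440. All 5 genes of this complex were lowest in L4440 replicate 3. So were 19 of the 42 members and 14 of 20 tested genes of the tricarboxylic acid cycle and pyruvate dehydrogenase. Of the 1350 tested genes with the highest mean CPM 635 were lowest there.

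Complex III, which passes electrons from ubiquinol to cytochrome c, was represented by 7 genes with log2 fold changes from -0.15 to 0.066 (median -0.039), and 0 passed. The Rieske iron-sulphur protein gene isp-1 (WBGene00002162, chromosome IV, 8134016 to 8136055, minus strand) was its most abundant member. It had 232, 245 and 233 CPM per kilobase in libraries labelled T25B9.1, against 225, 267 and 213 in those labelled L4440. The L4440 values spread over a wider range that enclosed all 3 of the others (log2 fold change 0.013, SE 0.088, edgeR adjusted p = 0.976). The cytochrome c1 gene cyc-1, whose knockdown by RNAi is known to lengthen life, had 194, 210 and 187 under the T25B9.1 label, against 192, 237 and 179 under the L4440 label. The core protein gene ucr-1 averaged 206 ± 19.4 CPM per kilobase in libraries labelled T25B9.1 and 206 ± 24.2 in those labelled L4440 (SD, n = 3 each).

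The subunits of complex IV, cytochrome c oxidase, formed the most even group. Their levels spanned 2.61-fold, and all 7 log2 fold changes were negative, between -0.10 and -0.036 (median -0.06), with 0 past the threshold and a smallest edgeR adjusted p of 0.732. The most abundant, cox-5A, had 444, 426 and 448 CPM per kilobase in libraries labelled T25B9.1, against 439, 522 and 442 in those labelled L4440. The least abundant, cox-6C, had 171, 172 and 167 under the T25B9.1 label, against 159, 201 and 173 under the L4440 label. Each of the 7 genes was highest in L4440 replicate 2, and the remaining libraries lay close together. The gene cox-7C had 342, 331 and 349 CPM per kilobase in libraries labelled T25B9.1, against 321, 410 and 365 in those labelled L4440. For cox-5B, the cco-1 of the older literature and a common RNAi target in lifespan work, the values were 268, 276 and 268 under the T25B9.1 label, against 263, 317 and 267 under the L4440 label. Without L4440 replicate 2 the median of the 7 genes was 0.018, so their shared sign went with that library.

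The 7 assembly genes of complex IV were expressed at lower levels. Mean levels ran from 5.67 CPM per kilobase for cox-10, which acts in haem A synthesis, to 97.2 for cox-14. Log2 fold changes ran from -0.12 to 0.12 (median 0.025), 4 positive and 3 negative, and 0 passed by edgeR. The gene cox-10 had 5.58, 6.28 and 5.6 CPM per kilobase in libraries labelled T25B9.1, against 5.46, 6.34 and 4.75 in those labelled L4440. The membrane insertion gene cox-18 averaged 14.3 ± 1.55 under the T25B9.1 label and 13.1 ± 0.39 under the L4440 label (SD, n = 3 each). For the copper chaperone gene cox-17 the means were 25.9 ± 1.27 under the T25B9.1 label and 26.8 ± 3.6 under the L4440 label (SD, n = 3 each). Of these 7 genes 2 were highest in L4440 replicate 2, against 32 of the 35 genes for subunits.

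Complex V, the ATP synthase, held the most abundant members. The beta subunit gene atp-2 (WBGene00000229, chromosome III, 5228417 to 5230536, plus strand), which carries the catalytic sites, had 921, 1083 and 916 CPM per kilobase in libraries labelled T25B9.1, against 980, 1113 and 819 in those labelled L4440. The alpha subunit gene atp-1 (WBGene00010419, chromosome I, 12652277 to 12654655, plus strand) had 794, 976 and 787 under the T25B9.1 label, against 876, 977 and 742 under the L4440 label. Both genes had the largest standard error of the 42 (0.134), lay highest in replicate 2 of each label and had log2 fold changes of 0.0044 (atp-2) and -0.021 (atp-1). In the pair, atp-1 took 46.6% ± 0.659 of the summed level under the T25B9.1 label and 47.2% ± 0.407 under the L4440 label (SD, n = 3 each). The 9 genes had log2 fold changes from -0.10 to 0.0044 (median -0.036), 8 of them negative, and 0 passed. The stalk subunit gene atp-3, whose RNAi also lengthens life, had 463, 492 and 442 CPM per kilobase in libraries labelled T25B9.1, against 458, 520 and 438 in those labelled L4440. The smallest p was that of the subunit g gene asg-2 (log2 fold change -0.10, SE 0.0749, edgeR adjusted p = 0.682).

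For 4 proteins of the chain the list holds more than 1 gene, and the shares of these paralogs were compared between the labels. Of the summed level of the subunit b genes, asb-1, known as the germline form, took 79.3%, 80.9% and 77.9% in libraries labelled T25B9.1, against 77.2%, 81.7% and 77.8% in those labelled L4440. The minor form asb-2 had 85.6, 87.2 and 87.3 CPM per kilobase under the T25B9.1 label, against 92.6, 91.7 and 86.4 under the L4440 label. These groups overlapped (log2 fold change -0.057, SE 0.0574, edgeR adjusted p = 0.782). Of the subunit g genes, asg-1 took 81.3%, 81.5% and 79% in libraries labelled T25B9.1, against 79.5%, 80.4% and 79.8% in those labelled L4440. Of the flavoprotein genes of complex II, sdha-2 took 70.2%, 68.8% and 69.4% under the T25B9.1 label, against 68%, 68.2% and 69.3% under the L4440 label. The lesser copy sdha-1, the lowest of complex II, had 34.6, 42.9 and 35 CPM per kilobase in libraries labelled T25B9.1, against 39, 43.7 and 32.4 in those labelled L4440. In each of these families 1 gene dominated in every library and the groups overlapped. Among the 3 genes of core protein 2, the lesser copy ucr-2.1 had a share of 19.7%, 19.1% and 20.8% in libraries labelled T25B9.1, against 22.9%, 20.9% and 22.8% in those labelled L4440. These values did not overlap. A two-sided exact permutation test gave p = 0.1, the smallest that 3 against 3 libraries allow, and 0.35 after Benjamini-Hochberg adjustment over the 7 shares compared. The main copy ucr-2.3 took 65.3%, 66.1% and 64% under the T25B9.1 label, against 61.6%, 64% and 60.8% under the L4440 label. The lowest gene of complex III, ucr-2.2, took 15%, 14.8% and 15.2% in libraries labelled T25B9.1, against 15.6%, 15.1% and 16.4% in those labelled L4440. Both sets of shares overlapped or met (exact p = 0.2 each). The handling of reads that match several copies is not stated, so counts of near-identical stretches are uncertain.

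**Figure D3:**
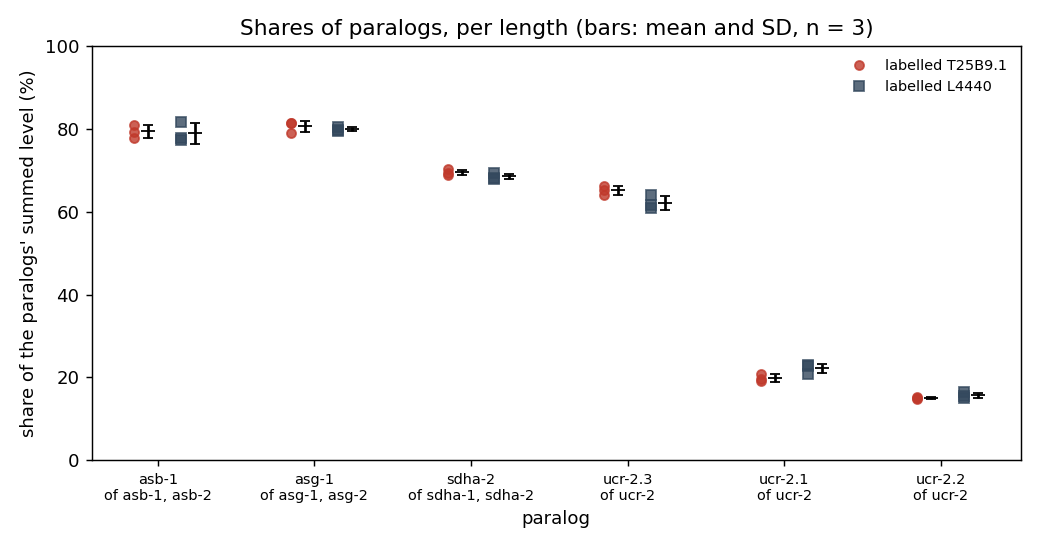
Share of each paralog in the summed level of its family, per length (vertical axis, percent), in libraries labelled T25B9.1 (circles) and L4440 (squares), with mean and SD of 3 libraries. The shares of asb-1, asg-1, sdha-2, ucr-2.3 and ucr-2.2 overlap between groups, and those of ucr-2.1 (19.1% to 20.8%, against 20.9% to 22.9% under the L4440 label) do not.

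The lesser copies shared a chromosome, which the choice of genes did not use but which was noticed after the values were seen. In all 4 families the copies on chromosome X, namely asb-2, asg-2, sdha-1, ucr-2.1 and ucr-2.2, lay below the autosomal copies asb-1, asg-1, sdha-2 and ucr-2.3 in every library. With gas-1, the list has 6 X-linked genes, whose mean levels ran from 25.9 to 90.8 CPM per kilobase (median 36.7). The 29 autosomal subunit genes ran from 83.2 to 972 (median 232), and 26 of them lay above the highest X-linked one. Other tested genes differed in the same direction: the median of 1900 X-linked genes was 3.95 CPM per kilobase, 32.7% of the median of 11447 autosomal ones. In C. elegans the X chromosome is known to be largely silent in the germline. All 6 X-linked members had negative log2 fold changes, from -0.16 to -0.033 (median -0.079), and 0 of the 6 passed by edgeR. The median was -0.036 for the autosomal subunit genes and 0.013 for other tested genes on X. The X-linked genes gas-1, sdha-1, ucr-2.1, ucr-2.2 and asg-2 were highest in L4440 replicate 2, and asb-2 in L4440 replicate 1. Without L4440 replicate 2 the log2 fold change was 0.058 for sdha-1 and -0.035 for gas-1. Beside the X-linked members, all 15 germline and oocyte marker genes tested had positive log2 fold changes (median 0.069) and 0 passed. Of these markers 12 were highest in T25B9.1 replicate 2 and 13 were lowest in L4440 replicate 3. Abundant genes leaned the same way: of the 1350 tested genes with the highest mean CPM, 827 had positive log2 fold changes. Of these 1350 genes, 471 were highest in T25B9.1 replicate 2 and 635 lowest in L4440 replicate 3. Of all 13494 tested genes the counts were 2761 and 2735. In L4440 replicate 1, however, 14 of the 15 germline markers lay above their own mean over the 6 libraries. Their summed share of counts ran from 1.76% to 1.84% in libraries labelled T25B9.1 and from 1.67% to 1.8% in those labelled L4440. The part of germline content in these values was not tested.

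The largest deviation shared by the genes of the chain lay in L4440 replicate 2. For each gene the log2 CPM in a library was taken relative to the gene's mean over the 6 libraries. The median of this deviation over the 42 members was -0.034, 0.025 and -0.054 in libraries labelled T25B9.1, against -0.05, 0.19 and -0.07 in those labelled L4440. Under each label replicate 2 had the highest median and replicate 3 the lowest. L4440 replicate 2 thus stood apart: 40 members lay above their own mean there and 34 of 42 (81%) were highest there. Of all tested genes 22.6% were highest in that library, and of the 1350 genes of highest CPM 31.7%. Its median deviation was between 0.16 and 0.22 for the subunits of each complex and 0.10 for the assembly genes. Over all tested genes it was 0.0018, and over the 1350 genes of highest CPM 0.022. L4440 replicate 2 also had the lowest library total, 25480225 counts, followed by T25B9.1 replicate 2 with 26141547. The part of sequencing depth in these values was not tested.

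**Figure D4:**
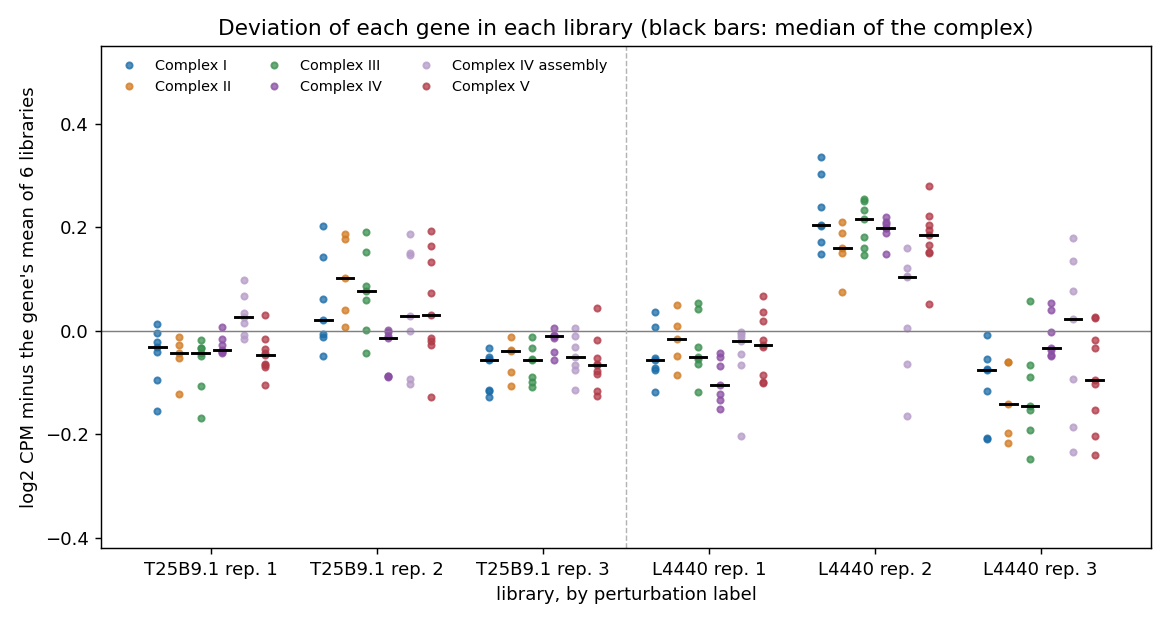
Deviation of each of the 42 genes in each library from its own mean over the 6 libraries (vertical axis, log2 CPM), coloured by complex, with the median of each complex as a black bar; libraries labelled T25B9.1 are left of the dashed line. In L4440 replicate 2 all medians lie above 0, between 0.10 and 0.22.

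Other mitochondrial genes were high in the same library to differing degrees, and markers of several tissues differed there. The median deviation in L4440 replicate 2 was 0.20 for other subunits of the chain, 0.21 for the tricarboxylic acid cycle and 0.10 for mitochondrial ribosomal proteins. It was 0.15 for genes listed for the mitochondrial unfolded protein response, 0.086 for other assembly factors and 0.039 for ubiquinone synthesis. Genes of the mitochondrial chromosome had 0.16 there and 0.19 in L4440 replicate 3. Among markers in L4440 replicate 2 it was 0.51 for the 7 tested epidermal, -0.35 for the 10 body-wall muscle, -0.23 for the 7 tested pharyngeal and -0.063 for the 15 germline ones. Muscle markers also deviated elsewhere, by 0.36 in L4440 replicate 1 and 0.31 in T25B9.1 replicate 3. The summed share of the epidermal markers ran from 0.0159% to 0.0225% of counts in libraries labelled T25B9.1 and from 0.0214% to 0.0297% in those labelled L4440, with the maximum in L4440 replicate 2. That of the muscle markers ran from 0.0733% to 0.109% under the T25B9.1 label and from 0.0736% to 0.106% under the L4440 label. The part of tissue content in the values of this library was not tested.

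A second pattern within groups followed transcript length. The 42 genes have summed exon lengths of 281 to 2444 bases. In T25B9.1 replicate 2 the 13 members of up to 700 bases had a median deviation of -0.043 and the 15 of over 1200 bases 0.15. L4440 replicate 3 ran the other way, at 0.027 for the short and -0.20 for the long members. L4440 replicate 1 had the direction of T25B9.1 replicate 2, at -0.10 for the short and -0.016 for the long members. Other tested genes of the same lengths followed the same direction, at -0.053 and 0.032 in T25B9.1 replicate 2 and 0.053 and -0.037 in L4440 replicate 3. In L4440 replicate 1 they had -0.061 and 0.026. In T25B9.1 replicate 2 and L4440 replicate 3 their values were smaller in size than the members' for the long genes and larger for the short ones. In L4440 replicate 2 short and long members were both high, at 0.17 and 0.20, while other tested genes had 0.068 and -0.026. The library trends are thus present on both sides of the comparison, and run both ways among the L4440 libraries. With a correction for length fitted in each library the members' median was -0.0071, 24 of 42 were negative and 0 passed by edgeR. The part of RNA quality in these trends was not tested.

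**Figure D5:**
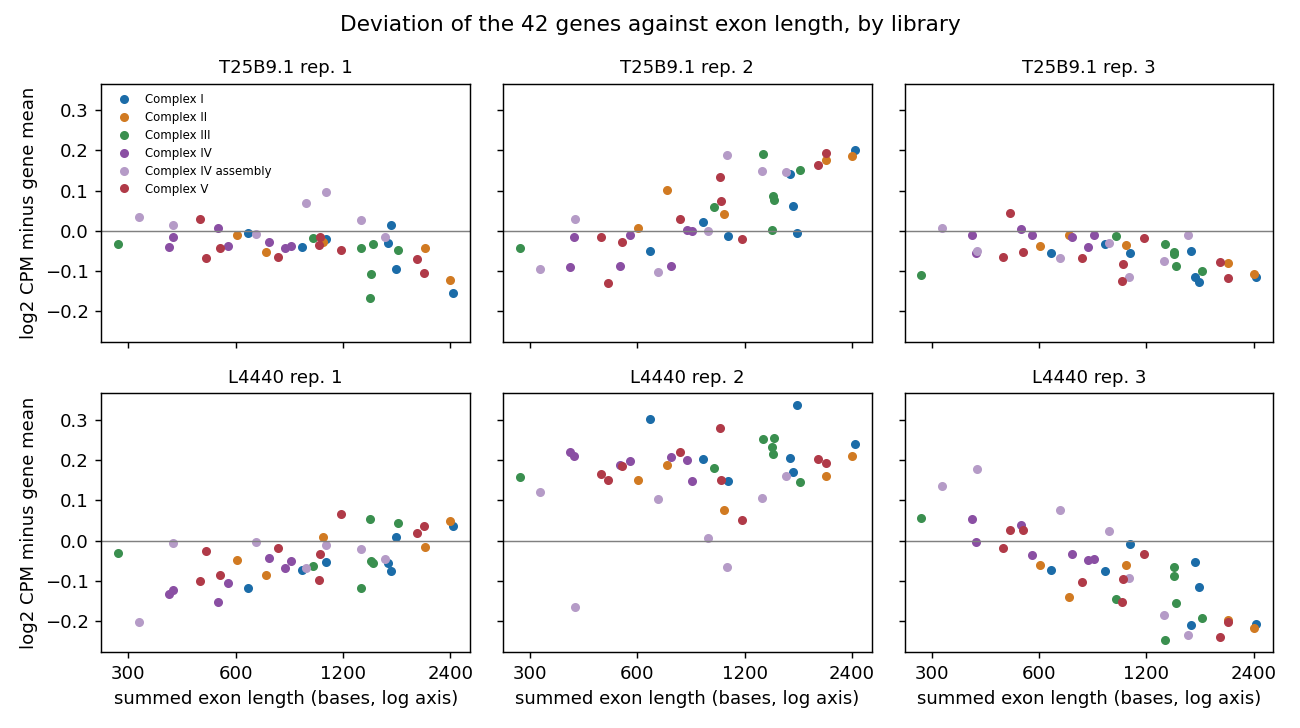
Deviation of each of the 42 genes from its mean over the 6 libraries (vertical axis, log2 CPM) against its summed exon length in bases (log axis), 1 panel per library, with those labelled T25B9.1 in the top row. Long genes are high in T25B9.1 replicate 2 and low in L4440 replicate 3, and genes of every length are high in L4440 replicate 2.

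Genes of the same machinery outside the name rule gave the same count. Of 37 further subunits or likely subunits with other names, 0 passed by edgeR (median log2 fold change -0.034, 30 negative, 0 with an unadjusted p under 0.05), and all 37 were highest in L4440 replicate 2. The smallest p among them was that of ndua-7, a complex I subunit gene (log2 fold change -0.15, SE 0.0786, edgeR adjusted p = 0.489). The main cytochrome c gene, cyc-2.1, had 344, 344 and 346 CPM in libraries labelled T25B9.1, against 341, 428 and 353 in those labelled L4440. Among 5 tested genes of cytochrome c, the ADP/ATP carriers and the ATP synthase inhibitors 0 passed by edgeR, nor had any an unadjusted p under 0.05. The carrier gene ant-1.3 came closest (log2 fold change -0.29, SE 0.135, edgeR adjusted p = 0.402).

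Supply and upkeep of the chain were measured with lists of the same kind. Of 15 assembly factors with other names 0 passed by edgeR and 1 had an unadjusted p under 0.05. It was sco-1, which serves copper delivery to complex IV, with 36.3, 33 and 34.7 CPM in libraries labelled T25B9.1, against 30.9, 30.2 and 30 in those labelled L4440 (log2 fold change 0.19, SE 0.0695, edgeR adjusted p = 0.235). These groups did not overlap, and the difference did not pass the adjustment. Likewise 0 of 8 genes of ubiquinone synthesis and 0 of 20 genes of the tricarboxylic acid cycle and pyruvate dehydrogenase passed by edgeR or had an unadjusted p under 0.05. The smallest p-values there were those of coq-3 (log2 fold change -0.12, edgeR adjusted p = 0.611) and sucl-1 (-0.11, edgeR adjusted p = 0.525). Of 69 mitochondrial ribosomal protein genes 0 passed and 1 had an unadjusted p under 0.05, mrpl-30 (0.20, SE 0.0842, edgeR adjusted p = 0.342). Of 15 genes listed for the mitochondrial unfolded protein response 0 passed and 1 had an unadjusted p under 0.05, ubl-5 (-0.24, SE 0.10, edgeR adjusted p = 0.312). That list also holds import, protease and prohibitin genes, such as tomm-20, spg-7 and phb-1. DESeq2 and limma-voom also called 0 genes in each of these lists.

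The chain's mitochondrially encoded partners spread more widely between libraries than the nuclear members. Counts of the 12 protein-coding genes of the mitochondrial chromosome were 0.728, 0.51 and 0.713 times those of the 42 nuclear members in libraries labelled T25B9.1, against 0.634, 0.677 and 0.859 times in those labelled L4440. The groups overlapped, with T25B9.1 replicate 2 lowest and L4440 replicate 3 highest. Of the 12 genes 11 had negative log2 fold changes (median -0.20), and 0 passed by edgeR or had an unadjusted p under 0.05. The smallest p was that of WBGene00010966 (log2 fold change -0.52, SE 0.242, edgeR adjusted p = 0.404). Its level was low, 3.78, 2.57 and 1.94 CPM in libraries labelled T25B9.1, against 4.03, 3.08 and 4.68 in those labelled L4440. The most abundant of the 12 genes by CPM, WBGene00010964, averaged 2119 ± 321 CPM under the T25B9.1 label and 2394 ± 347 under the L4440 label (SD, n = 3 each). Its log2 fold change was -0.18 (SE 0.149, edgeR adjusted p = 0.727).

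Tissue markers showed whole animals as labelled, with germline, muscle, intestine, neuron, pharynx and epidermis all detected, and 3 of 38 sperm genes passing the filter on low counts. Only intestinal markers held genes past the threshold, 3 of 9, all higher in libraries labelled T25B9.1. They were ifb-2, an intermediate filament gene (log2 fold change 0.74, SE 0.0841, edgeR adjusted p = 0.000771), pept-1, a peptide transporter gene (0.91, SE 0.123, edgeR adjusted p = 0.00239), and cpr-1, a cysteine protease gene (0.57, SE 0.125, edgeR adjusted p = 0.0341). The call of cpr-1 was lost without T25B9.1 replicate 2 or 3 (edgeR adjusted p = 0.0902 and 0.0933) and without L4440 replicate 1, 2 or 3 (0.0742, 0.0594 and 0.104). Of the 9 intestinal markers 5 had an unadjusted p under 0.05, and the other two had negative log2 fold changes and groups that did not overlap. The esterase gene ges-1 had 41.9, 38.1 and 37.1 CPM in libraries labelled T25B9.1, against 48.1, 45.5 and 48.3 in those labelled L4440 (log2 fold change -0.28, edgeR adjusted p = 0.0639). The actin gene act-5 averaged 102 ± 8.5 CPM under the T25B9.1 label and 125 ± 12.4 under the L4440 label (SD, n = 3 each; log2 fold change -0.29, edgeR adjusted p = 0.127). The median over the 9 intestinal markers was 0.024. In the other tissues 0 marker genes passed by edgeR, though unadjusted p-values under 0.05 were held by 4 of 7 pharyngeal, 3 of 7 epidermal and 2 of 10 neuronal markers and by 0 germline, sperm or muscle markers. The pharyngeal myosin gene myo-1 had 14.4, 14.2 and 17.4 CPM in libraries labelled T25B9.1, against 12, 6.72 and 5.9 in those labelled L4440 (log2 fold change 0.90, edgeR adjusted p = 0.111). The cuticle collagen gene col-140 had 57.3, 64.7 and 86.7 CPM under the T25B9.1 label, against 90, 122 and 99.3 under the L4440 label (log2 fold change -0.57, edgeR adjusted p = 0.143). The smallest adjusted p was 0.334 for neurons (ida-1), 0.544 for germline (pgl-1), 0.602 for sperm (spe-11) and 0.682 for muscle (mup-2).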

How the data were processed

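RNA was measured in 6 libraries of whole worms, made with Illumina's TruSeq RNA kit v2, per the labels' protocols. The authors deposited raw read counts for each gene. The submitters' processing notes name featureCounts 1.4.6-p4, STAR 2.4.1d, bcl2fastq 1.8.4 and build WBcel235. The kit does not mark strand and no counting setting is stated, so reads of overlapping genes are uncertain; 14 members share exon bases with another gene model, at most 6.54% of their length. A deposited RPKM table, scaled by the authors, was only checked: relative to L4440 replicate 1, its scaling varied over rows in 4 of the other 5 libraries with a period of 36 rows, and it was not used further.

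Groups came from the perturbation label. Replicate numbers follow accession order, and the labels pair nothing. Libraries of the same replicate number do carry consecutive numbers in their titles. The test was edgeR 4.0.16 in R 4.3.3 (robust quasi-likelihood, TMM factors, filterByExpr with a minimum count of 10, no covariate), with Benjamini-Hochberg adjustment over 13494 genes and a threshold of 0.05. It was also run on simulated counts, drawn for each gene independently. Such counts hold no shift shared by the genes of a library, so that run does not bear on such shifts. Standard errors were taken as the absolute log2 fold change divided by the root of F. Levels are CPM with TMM factors, per kilobase of summed exon length from Ensembl release 115. Deviations use log2(CPM + 0.5). Exact permutation tests used SciPy 1.17.1. Alternatives used DESeq2 1.42.0 and limma 3.58.1. Symbols matched 43693 of 46748 identifiers. Named genes are, per complex, the smallest p and the highest and lowest level, the paralogs, genes with known lifespan or oxygen phenotypes and, of each other list, genes past the threshold or the one of smallest p; others are examples named after their values were seen. From the list of further subunits 2 genes of unsure assignment were left out. Names that matched no symbol, such as ndua-3 and ndus-4 of that list, were also left out, and Y71H2AM.5 was already a member. Members and lists were chosen with earlier results of these data known.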

Additional observations from a re-analysis of the deposited data

How the results depend on the processing

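Under each of 14 alternatives (13 planned and 1 added after seeing the data, the length correction), 0 of the 42 members and 0 genes of the other mitochondrial lists passed the threshold. The smallest adjusted p of a member was 0.146, without L4440 replicate 1. The members' median log2 fold change ran from -0.093 to 0.031 when 1 library was left out. Under the other alternatives it ran from -0.043 to -0.0071. The SD of the library medians within labels was 0.105. L4440 replicate 2 widens that SD, and leaving out 1 of 3 libraries can hardly move the median beyond it. The SD therefore does not show that the median is stable. The median was positive only without L4440 replicate 2, where 20 of 42 fold changes had the other sign. The cause was not tested. By complex, leaving out 1 library gave medians from -0.10 to 0.045 for complex I, -0.053 to 0.058 for II, -0.11 to 0.064 for III, -0.15 to 0.018 for the subunits of IV, -0.02 to 0.047 for its assembly genes and -0.10 to 0.029 for V. For complex II the median was also positive with the length correction (0.015). The labels give no replicate numbers. A further fit took the consecutive numbers in the titles as a block, which the labels do not call pairs. It gave a median of -0.033 and 0 calls among the members, with a smallest edgeR adjusted p of 0.447. Standard errors fell unequally in that fit, from 0.126 to 0.072 for nuo-5 and from 0.0668 to 0.0633 for sdhb-1. With 3 libraries per group, the intervals given bound the size of each difference and do not show that values were equal.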
